A study of Mus musculus with 12 samples.

Results

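The genes described here mark B cells, antibody-secreting plasma cells and the epithelial transport of IgA. They were chosen by name: Cd79a, Cd79b and Ms4a1 for the B cell surface, Pou2af1 for transcription in the B lineage, Tnfrsf17 for the plasma cell surface, Jchain, Mzb1 and Derl3 for antibody assembly and secretion, and Pigr for the transport of IgA across the epithelium. All 9 genes were in the table of 17734 genes, and all 9 were among the 15315 tested genes, those whose mean reached 0.1. The choice was made with earlier results of these data known, so the tests and counts below may not be independent of it. Tnfrsf17 was included after its low level in colitis mice receiving BBR had been seen. Its values in that group are thus a description with no test. Rectal RNA of 12 male C57BL/6 mice, 8 to 10 weeks old, was sequenced, in 4 groups of 3. Normal mice received neither agent, and colitis mice drank water with 2.5% dextran sulfate sodium (DSS), a polymer toxic to the epithelium of the large bowel, over 7 days. The other two groups were the same with BBR added, called normal mice receiving BBR and, with DSS, colitis mice receiving BBR. BBR is berberine, a plant alkaloid, which was put into the stomach each day at 100 mg/kg. The duration of BBR was 7 days by the study methods and 6 days by the treatment protocol in the labels, so no value is read here as a time course. The model is a chemical injury of otherwise wild-type mice, the tissue is named rectal in the methods and colorectum in the labels, and each library is 1 whole piece of tissue.

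A B cell that meets its antigen can become a plasma cell, which stops displaying the B cell receptor and turns its endoplasmic reticulum over to making antibody. In the bowel wall most plasma cells make IgA, which is joined into dimers by the J chain, bound by the polymeric immunoglobulin receptor on the inner face of the epithelium and carried to the lumen. Transcripts of resting B cells come mainly from lymphoid follicles, whereas plasma cells lie scattered in the lamina propria, so a piece of rectum can hold many of one and few of the other. In bulk RNA, fewer cells of a type and less RNA per cell cannot be told apart. Genes of the antibody chains themselves (Igha, Igkc, Iglc1, Iglc2, Ighm and Ighd) were not analysed here. Of these, Ighm and Ighd were sought and had no values under these names.

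Levels are taken as FPKM, read numbers scaled for transcript length and for sequencing depth, so they can be compared between genes. No source used here names the unit. Differences are log2 fold changes of FPKM + 0.1 from limma with their standard errors (SE), fitted over all 12 mice, and they understate the change of low genes. Adjusted p-values are Benjamini-Hochberg values over all 15315 genes, with a limit of 0.05, and the unadjusted P limit of 0.05 from the study methods is given beside it. With 3 mice against 3 the smallest p of an exact permutation test is 0.1. Nothing in the labels says more of the replicates than their numbers. The mouse numbered 4 in each group stood apart, with a column total of 482194 to 504337 against 696286 to 765876 in the 8 mice numbered 1 to 3 and with 872 to 1086 genes at 0 against 1332 to 1926. Steps between low values put its depth, with the unit taken as FPKM, at 17500000 to 19600000 reads against 13300000 to 14900000 in the others. So 1 mouse in each group was read more deeply. The mouse numbered 4 also had the highest sum of 10 smooth muscle genes in its group. In normal mice this was 3318 FPKM against 1721 to 2080, and in normal mice receiving BBR 5266 against 2424 to 3062. In colitis mice it was 727.4 against 91.3 to 688.4. What sets these mice apart, depth, the mix of tissue or another trait, was not tested. Fold changes in the mice numbered 1 to 3 and in the mice numbered 4 are therefore given beside the main ones. The epithelial markers of a bowel sample were high in every mouse, with a summed level of 12 genes of 10678 to 18232, and none of them was at 0 in a whole group. The colitis mouse receiving BBR numbered 4 lay near normal mice in some markers that differed in colitis mice. Its summed levels were 7.2 FPKM for 9 neutrophil genes and 3668 for 10 smooth muscle genes. The others of its group had 233.5 to 249.1 and 505.2 to 525.2. The highest smooth muscle sum of every group was that of its mouse numbered 4, however. The colitis mouse numbered 4 had a neutrophil sum of 71.9, against 570.0 to 780.9 in the others of its group. In other markers the colitis mouse receiving BBR numbered 4 lay between normal and colitis mice. Its 6 endothelial genes had a sum of 13, against 17.9 to 23.1 in normal and 4.7 to 12 in colitis mice. Cd38 was at 141.1 against 63.1 to 68.6 and 206.5 to 260.2, and Tnf at 2.15 against 0.33 to 0.40 and 8.94 to 23.4. The main results are given with this mouse, and beside them without it.

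The 9 genes spanned a wide range of levels. Pigr, the receptor that carries IgA through the epithelial cell, had a mean of 1152 FPKM over the 12 mice, rank 86 of 17734 genes. Jchain, the joining chain of dimeric IgA, followed at 120.2 FPKM and rank 755. Mzb1, an endoplasmic reticulum cochaperone of antibody assembly, had a mean of 4.66 and Cd79a, a signalling chain of the B cell receptor, 4.02. The other five lay between 1.88 for Cd79b, the partner chain of Cd79a, and 0.546 for Ms4a1, which encodes CD20. These 2 transcripts and those of Tnfrsf17, Mzb1 and Derl3 rested on few reads in the lowest mice, about 3.9 for Cd79b, 2.1 for Ms4a1, 0 for Tnfrsf17, 2.4 for Mzb1 and 4.5 for Derl3, so a single read moved their low values.

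**Figure D1:**
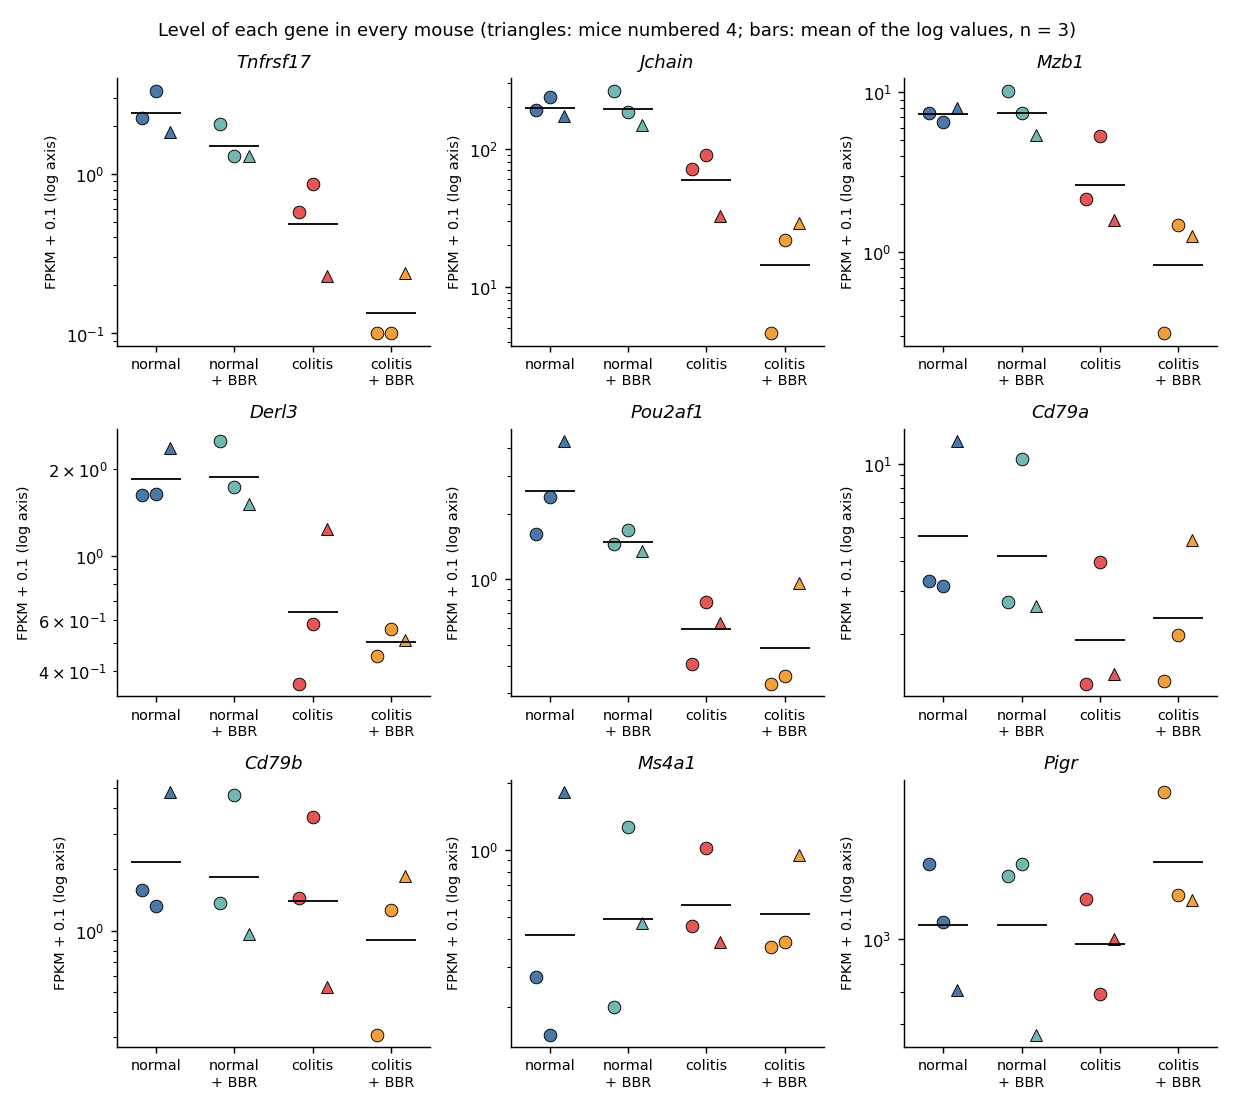
FPKM + 0.1 on a log axis for each of the 9 genes in every mouse of the 4 groups, with the mouse numbered 4 as a triangle and the mean of the log values of the 3 mice as a bar. For Jchain, Mzb1, Derl3 and Pou2af1 all 6 colitis mice, with or without BBR, lie under all 6 normal mice (4.96% of all genes do), Tnfrsf17 was included for its low values in colitis mice receiving BBR, and Pigr overlaps between the groups compared.

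The first question was how DSS colitis bore on these genes. Jchain was at 189.9, 235.1 and 173.0 FPKM in the normal mice numbered 1, 3 and 4 and at 71.6, 89.5 and 32.4 in the colitis mice numbered 1, 2 and 4. Every colitis mouse was lower than every normal mouse, and the mouse numbered 4 was the lowest of both groups. The log2 fold change was -1.74 (SE 0.59, unadjusted P = 0.0126 and adjusted p = 0.139 by limma), with -1.40 in the mice numbered 1 to 3 and -2.42 in the mice numbered 4. Mzb1 was at 7.32, 6.46 and 7.88 FPKM in normal mice and at 2.05, 5.20 and 1.48 in colitis mice. The colitis mouse numbered 2 came close to the normal range without reaching it, and the log2 fold change was -1.48 (SE 0.58, limma adjusted p = 0.182). Derl3, which helps misfolded proteins out of the endoplasmic reticulum and is abundant in secretory cells, was at 1.53, 1.54 and 2.26 FPKM in normal mice and at 0.26, 0.48 and 1.14 in colitis mice. Here the colitis mouse numbered 4 was the highest of its group, still under all 3 normal mice, and the log2 fold change was -1.54 (SE 0.43, limma adjusted p = 0.0968).

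Tnfrsf17 encodes BCMA, the receptor through which long-lived plasma cells receive survival signals. It was at 2.15, 3.24 and 1.74 FPKM in normal mice and at 0.48, 0.77 and 0.13 in colitis mice, the last of these worth about 2.0 reads. The groups did not overlap, and the log2 fold change was -2.30 (SE 0.53, limma adjusted p = 0.0599). Tnfrsf17 was chosen for its fall in colitis mice receiving BBR, and the mice that fall was measured against are not recorded. This comparison may thus not be free of the choice. Pou2af1, the coactivator that works with octamer-binding factors in B cells and plasma cells, was at 1.52, 2.30 and 4.22 FPKM in normal mice and at 0.31, 0.69 and 0.53 in colitis mice. It was also lower in every colitis mouse, by -2.12 on the log2 scale (SE 0.49, limma adjusted p = 0.0594).

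None of the 9 genes passed the adjusted limit in colitis mice compared to normal mice, where 1.08% of all tested genes did. This call depended on how the mice numbered 4 were treated: with a block for them Pou2af1, Tnfrsf17 and Derl3 passed (limma adjusted p = 0.0182, 0.0275 and 0.0401, among 1412 genes in place of 165), and with the replicate number as a block Pou2af1 did (0.0421, among 734). At the unadjusted limit 5 of the 9 were lower and 0 higher, whereas 15.9% of all genes were lower and 5.56% higher at that limit. These 5 were also the ones whose groups did not overlap, lower in colitis mice, against 22.2% of all genes. The count of 5 became 3 without the colitis mouse numbered 4, in the mice numbered 1 to 3 alone and with the replicate number as a block, and 6 without the colitis mouse numbered 2. The median log2 fold change of the 9 was -1.48 and that of all genes -0.32, so a shift of the whole table towards lower values in colitis mice lies under each of these values. After quantile normalization, which took the median of all genes to -0.05, 9.93% of all genes were lower and 9.72% higher at the unadjusted limit, and after centring 8.13% and 9.42%. Of the 9 genes 4 were lower and 0 higher with either, since Mzb1 no longer passed, and the median of the 9 was -1.10 and -1.14. Leaving out the colitis mouse numbered 4 took Derl3 to -2.02 with a limma adjusted p of 0.0378, and leaving out any other of the 6 mice compared took none of the 9 past the adjusted limit.

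The 3 B cell surface genes had no such separation. Cd79a was at 3.21, 3.07 and 12.3 FPKM in normal mice and at 1.15, 3.87 and 1.28 in colitis mice, and the groups overlapped. Its log2 fold change was -1.42 (SE 0.73, limma adjusted p = 0.275), of which -0.54 was seen in the mice numbered 1 to 3 and -3.17 in the mice numbered 4. Cd79b was at 1.49, 1.23 and 4.71 FPKM in normal mice and at 1.35, 3.53 and 0.43 in colitis mice, and its log2 fold change was -0.62 (SE 0.88, limma adjusted p = 0.672). Its direction turned with the mice used, 0.66 in the mice numbered 1 to 3 and -3.18 in the mice numbered 4. Ms4a1 was at 0.17, 0.05 and 1.72 FPKM in normal mice and at 0.36, 0.92 and 0.29 in colitis mice, and its log2 fold change of 0.44 (SE 0.90, 95% interval -1.53 to 2.41) allowed a large change in either direction. It likewise turned, from 1.77 in the mice numbered 1 to 3 to -2.22 in the mice numbered 4.

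Pigr, expressed by the epithelium and not by the cells whose product it carries, was at 1374, 1074 and 806.6 FPKM in normal mice and at 1183, 794.5 and 1001 in colitis mice, and each group held values inside the range of the other. The log2 fold change was -0.11 (SE 0.39, limma adjusted p = 0.875) with a 95% interval of -0.98 to 0.75, which leaves room for a change of some size. Centring each mouse on its median gave 0.22, so its sign depended on the scaling.

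In mice that all received BBR, colitis mice were compared to normal mice with no mouse in common with the comparison above. Jchain was at 263.6, 183.5 and 148.6 FPKM in normal mice receiving BBR, numbered 1, 3 and 4, and at 4.48, 21.7 and 29.0 in colitis mice receiving BBR, numbered 2, 3 and 4. The groups were far apart, and the log2 fold change of -3.76 (SE 0.59, limma adjusted p = 0.0561) ranked 11 of 15315 by P. It was -4.46 in the mice numbered 1 to 3 and -2.35 in the mice numbered 4. Mzb1 was at 10.1, 7.34 and 5.33 FPKM in normal mice receiving BBR and at 0.21, 1.38 and 1.17 in colitis mice receiving BBR, a log2 fold change of -3.16 (SE 0.58, limma adjusted p = 0.117). The mouse numbered 2 was the lowest of the colitis mice receiving BBR for both genes, with about 2.4 reads of Mzb1.

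Derl3 and Pou2af1 were lower in the same comparison by smaller amounts. Derl3 was at 2.40, 1.64 and 1.42 FPKM in normal mice receiving BBR and at 0.35, 0.46 and 0.41 in colitis mice receiving BBR, with a log2 fold change of -1.90 (SE 0.43, limma adjusted p = 0.182). Pou2af1 was at 1.36, 1.58 and 1.25 against 0.23, 0.26 and 0.86, with a log2 fold change of -1.62 (SE 0.49, limma adjusted p = 0.215). Neither gene overlapped between these groups. Tnfrsf17 was at 1.95, 1.19 and 1.2 FPKM in normal mice receiving BBR and was listed at 0, 0 and 0.14 in the colitis mice receiving BBR numbered 2, 3 and 4. The 0.14 is worth about 2.0 reads and lies under the 3-read floor of 0.21 to 0.295 FPKM in this group, so the gene was not detectable above counting error there. Its fitted difference in the plot of both colitis comparisons depends on the added 0.1 and is no bound.

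Of the 8 genes tested in this comparison 0 passed the adjusted limit, against 0.0392% of all genes. With a block for the mice numbered 4 Jchain, Mzb1 and Derl3 passed (limma adjusted p = 0.0411, 0.0441 and 0.0456, among 268 genes in place of 6). By the unadjusted limit 4 were lower and 0 higher (17.3% of all genes were lower and 2.37% higher), and the same 4, Jchain, Mzb1, Derl3 and Pou2af1, were those whose groups did not overlap (18% of all genes, lower). Quantile normalization left the same 4 lower at the unadjusted limit, where 5.88% of all genes were lower and 6.49% higher, and centring did as well, with 4.06% and 7.08%. The 3 B cell surface genes overlapped again, with log2 fold changes of -0.85 for Cd79a, -1.03 for Cd79b and 0.07 for Ms4a1, and limma adjusted p-values of 0.470, 0.464 and 0.966. Pigr was at 1306, 1369.8 and 669.8 FPKM in normal mice receiving BBR and at 1859, 1202 and 1180.4 in colitis mice receiving BBR, a log2 fold change of 0.38 (95% interval -0.48 to 1.24, limma adjusted p = 0.549). Without the colitis mouse receiving BBR numbered 4, all of Jchain, Mzb1, Derl3 and Pou2af1 passed the adjusted limit, with limma adjusted p-values of 0.00729, 0.0162, 0.035 and 0.022, and 2256 genes of the whole table did so instead of 6.

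**Figure D2:**
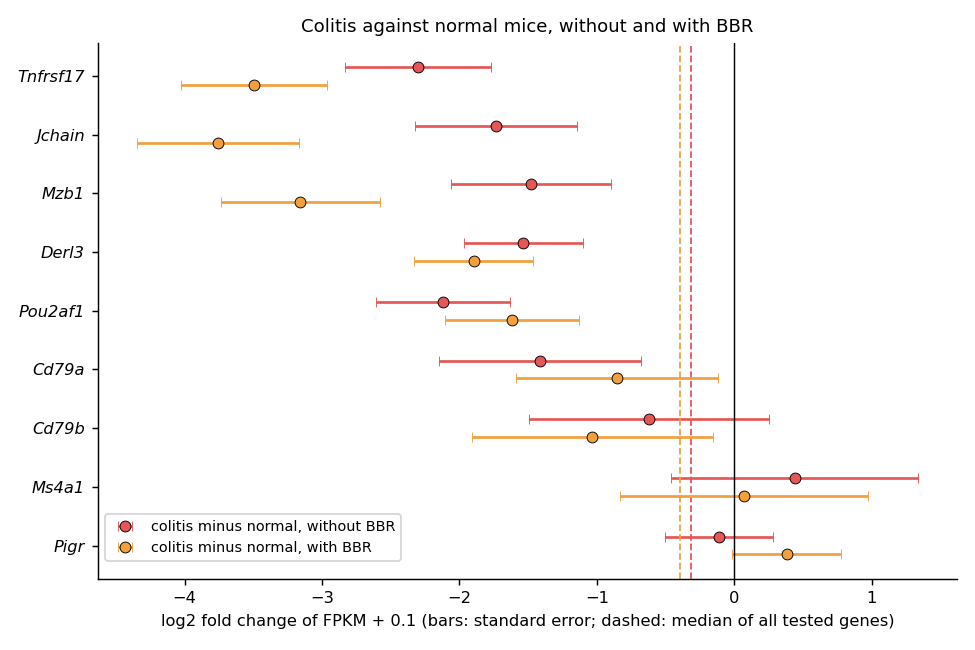
Log2 fold change of FPKM + 0.1 of colitis mice over normal mice for each of the 9 genes, without BBR in red and with BBR in orange, with standard errors as bars and the median of all 15315 tested genes as dashed lines at -0.32 and -0.40. Jchain, Mzb1, Derl3 and Pou2af1 lie to the left of both medians by more than their standard errors, and Pigr and Ms4a1 lie near 0. The point of Tnfrsf17 with BBR is set by the choice of this gene and by the added 0.1, and nothing is read from it.

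Averaging the colitis difference over both BBR states used all 6 colitis and all 6 normal mice, an analysis added after the values had been seen. In it Jchain fell by 2.75 on the log2 scale (SE 0.42, limma adjusted p = 0.00741), Mzb1 fell by 2.32 (SE 0.41, limma adjusted p = 0.0126), Pou2af1 fell by 1.87 (SE 0.34, limma adjusted p = 0.0144) and Derl3 fell by 1.72 (SE 0.31, limma adjusted p = 0.0127). These 4 of the 8 genes tested passed the adjusted limit, all lower, whereas 11.4% of all genes did so. Each of the 4 was lower in 6 of 6 colitis mice than in any normal mouse, a separation found for 4.96% of all genes. Tnfrsf17 was not counted here. The exact permutation of mice within each BBR state gave p = 0.005 for each of the 4, the smallest value it can give. The genes were chosen with earlier results of these data known, so these p-values may not be free of that choice. The other four did not pass, with limma adjusted p-values of 0.128 for Cd79a, 0.320 for Cd79b, 0.776 for Ms4a1 and 0.731 for Pigr. The averaged difference of Pigr was 0.13 on the log2 scale, with a 95% interval of -0.48 to 0.74. The same 4 genes passed under all 23 alternative settings run for the averaged analysis, and without the colitis mouse receiving BBR numbered 4 Cd79a passed as well. Quantile normalization took the median of all genes from -0.36 to -0.04 and left Jchain at -2.65 and Mzb1 at -1.85.

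Promoters are shown for 4 of the genes that were lower together in colitis mice, Jchain, Derl3, Pou2af1 and Tnfrsf17, and for Pigr, which was not. A promoter entry was matched for 6 of the 9 genes in the RefSeq sequences of GRCm38.p6. The 250 bases before the transcription start are printed 5′ to 3′ on the strand of the gene, at chr5:88527898-88528147 on the minus strand, chr10:75893148-75893397 on the plus strand, chr9:51213440-51213689 on the plus strand, chr16:11313559-11313808 on the plus strand and chr1:130826434-130826683 on the plus strand. Capitals mark ACGTG on either strand, the core of sites bound by factors of the unfolded protein response and by E-box factors, and in Tnfrsf17 the letters GAAA, any 2 bases and GAAA again on the minus strand, a form recognised by interferon regulatory factors.
Jchain: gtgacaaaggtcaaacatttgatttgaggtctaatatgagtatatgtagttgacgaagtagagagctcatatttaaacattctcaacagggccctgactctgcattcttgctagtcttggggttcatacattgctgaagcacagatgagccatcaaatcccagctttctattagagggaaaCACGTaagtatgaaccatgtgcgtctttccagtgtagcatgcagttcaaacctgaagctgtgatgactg
Derl3: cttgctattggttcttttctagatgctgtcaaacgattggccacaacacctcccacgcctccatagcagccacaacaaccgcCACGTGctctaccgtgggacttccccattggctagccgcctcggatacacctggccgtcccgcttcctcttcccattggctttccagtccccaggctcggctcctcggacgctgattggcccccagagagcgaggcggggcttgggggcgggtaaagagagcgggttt
Pou2af1: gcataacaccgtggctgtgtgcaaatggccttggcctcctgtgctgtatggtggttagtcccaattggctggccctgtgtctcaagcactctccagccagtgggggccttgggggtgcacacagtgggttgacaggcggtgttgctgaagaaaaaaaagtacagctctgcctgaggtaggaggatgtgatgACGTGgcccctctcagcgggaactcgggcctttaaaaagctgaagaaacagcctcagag
Tnfrsf17: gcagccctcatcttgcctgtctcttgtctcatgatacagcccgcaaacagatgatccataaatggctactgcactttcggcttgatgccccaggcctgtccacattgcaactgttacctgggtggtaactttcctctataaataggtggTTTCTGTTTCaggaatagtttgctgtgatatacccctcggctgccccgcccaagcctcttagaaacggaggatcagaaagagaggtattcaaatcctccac
Pigr: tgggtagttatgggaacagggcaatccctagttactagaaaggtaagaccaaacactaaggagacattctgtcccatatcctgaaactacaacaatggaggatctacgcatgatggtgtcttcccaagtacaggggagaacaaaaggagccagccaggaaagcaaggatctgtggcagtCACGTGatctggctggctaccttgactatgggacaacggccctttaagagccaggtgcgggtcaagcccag

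The letters ACGTG were found in Jchain, Derl3, Pou2af1 and Pigr, 4 of the 6 genes matched, and in 16.6% of 27025 promoter windows of the same length. They were thus present both in genes that were lower in colitis mice and in Pigr, and in Derl3 and Pigr they form a palindrome that is matched on both strands. The longer TGACGTGG, which contains ACGTG, was found in Pou2af1 and in 0.503% of all windows. The pair of GAAA with 2 bases between them was found in Tnfrsf17 and in 3.04% of all windows. Of the other letters searched on both strands, CAGGTG was found in Cd79a, Derl3 and Pigr (17.1% of all windows), CCAAT in Pou2af1 and Derl3 (34.5%) and GAGGAAG in Derl3 (10.4%). ATGCAAAT, its shorter form ATGCAAA and CCCNNGGG were found in 0 of the 6, against 1.61%, 4.06% and 11.7% of all windows. A match is a run of letters and not a site shown to be used.

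The next question was how BBR bore on these genes during colitis. Jchain and Mzb1 were lower in colitis mice receiving BBR than in colitis mice, by the values given above. The highest Jchain value with BBR, 29.0 FPKM, lay just under the lowest without it, 32.4 FPKM, and for Mzb1 the nearest values were 1.38 and 1.48. The log2 fold change of Jchain was -2.05 (SE 0.59, unadjusted P = 0.0047 and adjusted p = 0.510 by limma), and that of Mzb1 was -1.65 (SE 0.58, unadjusted P = 0.0153 and adjusted p = 0.615 by limma). In the mice numbered 1 to 3 alone the differences were -3.0 and -2.32, and in the pair of mice numbered 4 they were -0.16 and -0.32. Without the mouse receiving BBR numbered 4 they were -2.57 and -1.95, with limma adjusted p-values of 0.303 and 0.384. Without the mouse receiving BBR numbered 2, the lowest, they were -1.23 and -0.94. Therefore the size of both differences depended on which mice were compared.

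Of the 8 genes tested, 0 passed the adjusted limit of limma between colitis mice with and without BBR, where 0% of all 15315 genes did, and 2 were lower at the unadjusted limit, where 5.2% of all genes were. The count of 2 became 1 without the colitis mouse numbered 2, without the colitis mouse receiving BBR numbered 2 and in a fit of these groups alone. The same 2, Jchain and Mzb1, were those whose groups did not overlap (5.66% of all genes, lower). They were the same 2 after quantile normalization, with 4.11% of all genes lower and 3.17% higher, and after centring, with 3.49% and 2.99%. Tnfrsf17 was listed at 0, 0 and 0.14 FPKM with BBR against 0.48, 0.77 and 0.13 without it, so the values of the mice numbered 4, of about 2.0 reads each, were alike, and the low value there is what it was chosen for. Derl3 overlapped between the groups (0.26 to 1.14 FPKM without BBR and 0.35 to 0.46 with it), with a log2 fold change of -0.34 (SE 0.43, 95% interval -1.28 to 0.61). Pou2af1 overlapped as well, with -0.28 (SE 0.49, 95% interval -1.34 to 0.78). The B cell surface genes had log2 fold changes of 0.29 for Cd79a, -0.65 for Cd79b and -0.14 for Ms4a1, each with a limma adjusted p of 1.00, and Cd79a was -0.48 in the mice numbered 1 to 3 and 1.82 in the mice numbered 4. Pigr had a higher mean with BBR, by 0.50 on the log2 scale (SE 0.39, 95% interval -0.37 to 1.36, limma adjusted p = 1.00), and its groups overlapped.

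In normal mice the groups with and without BBR overlapped for each of the 9 genes. The log2 fold changes were -0.03 for Jchain, 0.03 for Mzb1, 0.02 for Derl3, 0.00 for Pigr, -0.78 for Pou2af1 and -0.67 for Tnfrsf17. None of the 9 passed the adjusted or the unadjusted limit of limma, where 0% and 1.36% of all genes passed, and 9.62% of all genes had groups without overlap, against 0 of the 9. The intervals were wide even so, with a 95% interval of -1.32 to 1.26 for Jchain and -1.84 to 0.28 for Pou2af1. The difference between the BBR effects in colitis and in normal mice, tested as an interaction, was -2.02 for Jchain (SE 0.83, unadjusted P = 0.0327 by limma) and -1.68 for Mzb1 (SE 0.82, unadjusted P = 0.0642 by limma). Their adjusted p-values were 1.00 each, and 1 of the 8 genes tested passed the unadjusted limit where 2.42% of all genes did. That count was 0 without the normal mouse numbered 1 or 4, the normal mouse receiving BBR numbered 1 or the colitis mouse numbered 1 or 2, and 2 without the colitis mouse numbered 4 or the colitis mouse receiving BBR numbered 3 or 4.

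Ratios of FPKM within a mouse do not depend on the scaling of that mouse. Pigr over Jchain, a transport receptor over a part of its cargo, was 4.57 to 7.24 in normal mice and 4.51 to 7.46 in normal mice receiving BBR. It was 8.88 to 30.9 in colitis mice and 40.7 to 415 in colitis mice receiving BBR, so the ranges of the 2 colitis groups overlapped neither each other nor those of normal mice. Pigr itself stayed within 669.8 to 1859 FPKM in all 12 mice. On the scale of log2(FPKM + 0.1), against the mean log level of 12 epithelial genes, Pigr stood 0.72 to 1.23 higher in normal mice, 0.75 to 0.93 in colitis mice, 0.74 to 1.54 in normal mice receiving BBR and 1.13 to 2.22 in colitis mice receiving BBR. Every colitis mouse receiving BBR was thus above every colitis mouse on this scale, with the mouse numbered 2 far above the others. That mouse also had the lowest epithelial sum of all 12 mice, 10678 FPKM. The range with BBR in colitis overlapped that of normal mice receiving BBR, and Pigr itself overlapped between the 2 colitis groups. The share of all genes that would separate in such ratios was not computed. The log2 mean of Jchain, Mzb1 and Derl3 less that of Cd79a, Cd79b and Ms4a1 was 1.64 to 3.99 in normal mice and 1.76 to 4.38 in normal mice receiving BBR. It was 1.41 to 2.60 in colitis mice and 0.38 to 1.40 in colitis mice receiving BBR. This difference moves with the added value, since Ms4a1 was low, and with 1 in place of 0.1 it was 1.54 to 2.96 in normal mice, 1.63 to 3.37 in normal mice receiving BBR, 1.43 to 1.80 in colitis mice and 0.47 to 1.10 in colitis mice receiving BBR. These ratios were compared after the levels had been seen and carry no test.

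**Figure D3:**
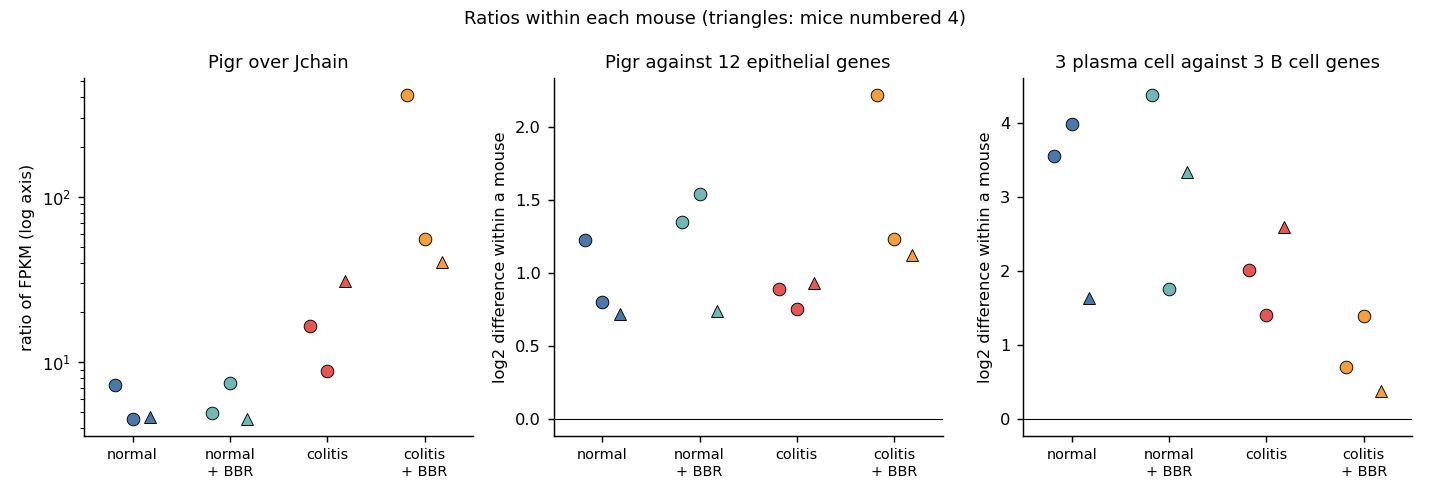
Ratios within each mouse by group, with mice numbered 4 as triangles: Pigr over Jchain on a log axis (left), Pigr less the mean of 12 epithelial genes on the log2 scale (middle), and the mean of Jchain, Mzb1 and Derl3 less the mean of Cd79a, Cd79b and Ms4a1 on the log2 scale (right). Pigr over Jchain is 4.51 to 7.46 in the 6 normal mice and 8.88 to 415 in the 6 colitis mice, with no overlap.

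Within a group the B cell surface genes varied together. In each group 1 mouse had by far the highest Cd79a, the normal mouse numbered 4 (12.3 FPKM), the normal mouse receiving BBR numbered 3 (10.3), the colitis mouse numbered 2 (3.87) and the colitis mouse receiving BBR numbered 4 (4.78). The same mouse was highest for 14, 13, 8 and 13 of the 15 other B cell genes in the table. Cd37, a B cell tetraspanin, was at 5.03, 4.89, 3.73 and 3.26 FPKM in these mice, against at most 1.76, 1.68, 2.08 and 2.0 in the others of their groups. Of Tnfrsf17, Jchain, Mzb1 and Derl3, 2, 0, 3 and 2 were highest in that mouse too. Over the 12 mice, deviations from the group mean had a Pearson r of 0.90 between Cd79a and Ms4a1, 0.89 between Cd79a and Cd79b and 0.90 between Jchain and Mzb1, and 0.11 between Ms4a1 and Jchain. Other pairs across the B cell and plasma cell genes were higher, with 0.76 between Cd79b and Mzb1, 0.67 between Cd79b and Jchain and 0.53 between Cd79a and Mzb1, so the genes did not fall into separate sets. Pou2af1 varied with Cd79a (r = 0.81) more than with Jchain (r = 0.38), and Derl3 had an r of -0.16 with Jchain and 0.05 with Mzb1. These values are descriptions over 12 mice, and whatever sets the mice numbered 4 apart enters all of them.

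**Figure D4:**
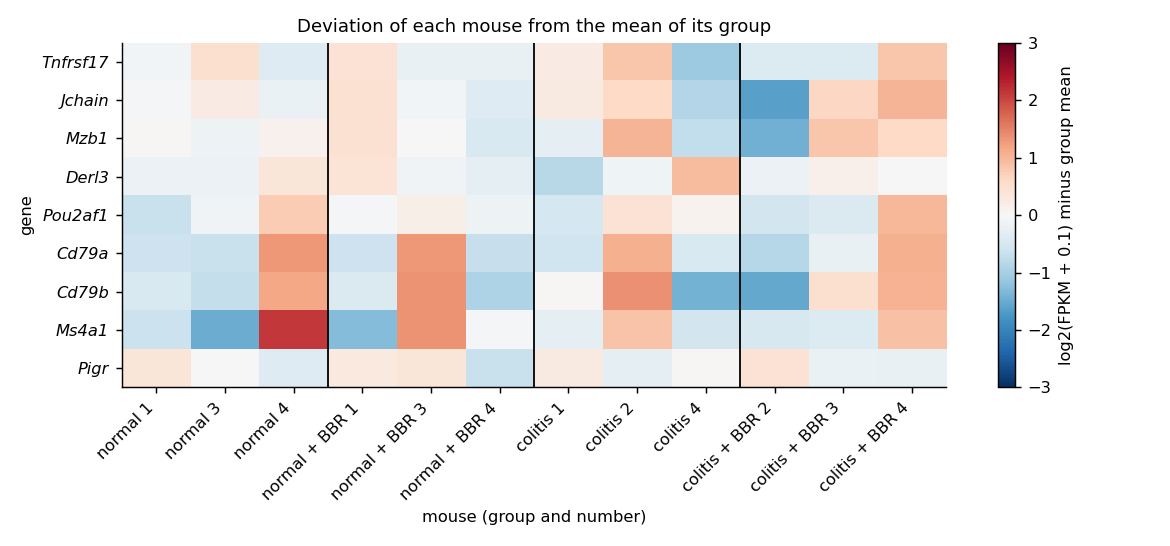
Deviation of each mouse from the mean of its group, in log2(FPKM + 0.1), for the 9 genes (rows) and the 12 mice (columns, with lines between groups). Cd79a, Cd79b and Ms4a1 are high together in the normal mouse numbered 4, the normal mouse receiving BBR numbered 3, the colitis mouse numbered 2 and the colitis mouse receiving BBR numbered 4, and Jchain and Mzb1 are both lowest in the colitis mouse receiving BBR numbered 2.

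The genes most like each member across the 12 mice were sought among 11943 genes with a mean of at least 1, by Pearson r of the log2 values. The nearest to Jchain was Mzb1 (r = 0.98) and the second was Tnfrsf17 (r = 0.95). Mzb1 in turn was nearest to Jchain and had no other gene of the 9 among its 5 nearest. For Tnfrsf17 the nearest was Jchain and Mzb1 was also among the 5, but the values of colitis mice receiving BBR, for which Tnfrsf17 was included, enter each r of this gene. Ms4a1 was nearest to Cd37 (r = 0.92), followed by H2-DMb2 (r = 0.82), an MHC class II chaperone. Cd79b was nearest to Clu (r = 0.93) and then to Cd79a (r = 0.86). Pou2af1, Derl3, Cd79a and Pigr had no gene of the 9 among their 5 nearest, which were led by Acvrl1 (r = 0.95), Mgl2 (r = 0.94), Gamt (r = 0.87) and Ddt (r = 0.90). With 12 mice in 4 groups, any gene with the same group means reaches a high r.

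Genes around the 9 were read from lists chosen with earlier results known. Of 15 other B cell genes, 0 passed the adjusted limit of limma in each of the 4 comparisons of groups, 0 were past the unadjusted limit in colitis mice compared to normal mice, where 21.4% of all genes were, and their median log2 fold change there was -0.09 against -0.32 for all genes. Of 14 other plasma cell genes tested, 1 fell and 2 rose in colitis mice past the adjusted limit, where 0.424% of all genes fell and 0.653% rose. Irf4, a transcription factor that drives plasma cell differentiation, fell by 1.81 on the log2 scale (SE 0.37, limma adjusted p = 0.0466), from 0.52 to 1.34 FPKM in normal mice to 0.14 to 0.16 in colitis mice, and it was at 0.68 to 0.75 and 0.06 to 0.15 in the same groups with BBR. Cd38 and Prdm1 rose, by 1.76 (SE 0.20, limma adjusted p = 0.00325) and 2.66 (SE 0.53, limma adjusted p = 0.0421). Prdm1 encodes Blimp1, which plasma cells need and which epithelial and myeloid cells can also express, and Cd38 is an ectoenzyme found on many cell types as well as on plasma cells. In colitis mice the median of this list was -0.15, with a lower mean for 8 genes and a higher mean for 6. At the unadjusted limit 3 were lower and 2 higher, against 15.9% and 5.56% of all genes. With BBR in both groups the list had a median of -0.29, and 6 were lower and 2 higher, against 17.3% and 2.37%. Between colitis mice with and without BBR 4 were lower and 0 higher, against 5.2% and 1.19%. With BBR in both groups Cd38 rose by 1.44 (SE 0.20, limma adjusted p = 0.0371) and Prdm1 had a log2 fold change of 1.62 (SE 0.53, limma adjusted p = 0.215). With each of the 6 mice compared left out in turn, the call of Cd38 in colitis mice held in 6 of 6 fits, and those of Irf4 and Prdm1 in 0 of 6, with limma adjusted p-values of 0.0631 to 0.146 and 0.0564 to 0.181. Irf4, of under 1 FPKM in most mice, passed in 5 of 17 alternatives in all, with a log2 fold change of -0.65 with a pseudocount of 1 (limma adjusted p = 0.0528) and -2.28 with 0.01 (limma adjusted p = 0.0679), and Prdm1 in 9 of 18. That of Cd38 with BBR in both groups held in 1 of 6, with limma adjusted p-values of 0.00729 to 0.228.

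Among 21 tested genes of B and plasma cell survival and homing, 2 rose and 0 fell past the adjusted limit in colitis mice, against 0.653% and 0.424% of all genes. Cxcl13, the chemokine that draws B cells into follicles, rose from 2.85 to 5.82 FPKM in normal mice to 18.4 to 134.6 in colitis mice, by 3.42 on the log2 scale (SE 0.66, limma adjusted p = 0.0362). Il6, a cytokine that plasma cells can use for survival, rose by 4.57 (SE 0.76, limma adjusted p = 0.0218), from at most 0.08 FPKM in normal mice to 1.49 to 5.48 in colitis mice. The size of this rise is set by the added value, with 2.05 for a pseudocount of 1 and 6.41 for 0.01. Each of these calls held in 1 of 6 fits with a mouse left out, with limma adjusted p-values of 0.0227 to 0.165 for Cxcl13 and 0.0258 to 0.115 for Il6. In colitis mice receiving BBR Cxcl13 was at 7.34 to 8.09 FPKM, under all 3 colitis mice, and its log2 fold change was -2.57 (SE 0.66, unadjusted P = 0.00216 and adjusted p = 0.486 by limma). Cxcl12, a chemokine of plasma cell niches, was at 6.71 to 17.4 FPKM there against 17.6 to 55.8 in colitis mice (limma adjusted p = 0.512). Itgb7, a chain of the gut homing integrin, was at 0.44 to 0.74 against 1.14 to 2.18 (limma adjusted p = 0.586). Of the 21 genes 14 had a lower and 7 a higher mean in colitis mice receiving BBR than in colitis mice. At the unadjusted limit 5 were lower and 1 higher, against 5.2% and 1.19% of all genes. Ccr10, the receptor that IgA plasma cells use to follow Ccl28, was looked at after its values were seen and was at 0.54 to 1.32 FPKM in normal mice and 0.21 to 0.53 in colitis mice (limma adjusted p = 0.191). Ccl28 itself was at 59.7 to 70.4 and 38.5 to 63.4 FPKM.

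Of the cytokines known to raise Pigr transcription, Tnf and Il1b rose in colitis mice, while Pigr did not pass the test. Tnf rose by 5.08 on the log2 scale (SE 0.74, limma adjusted p = 0.0141), from 0.33 to 0.40 FPKM to 8.94 to 23.4, and Il1b rose by 5.11 (SE 1.01, limma adjusted p = 0.0392), from 0.24 to 1.03 FPKM to 11.6 to 32.5. They were the 2 of 15 tested genes of epithelial transport and Pigr regulation to pass, and 0 fell, against 0.653% of all genes higher and 0.424% lower. With a mouse left out the call of Tnf held in 2 of 6 fits and that of Il1b in 1 of 6, with limma adjusted p-values up to 0.0781 and 0.151. Ifng, another inducer of Pigr, was too low to be tested, at 0, 0.14 and 0 FPKM in normal mice and 0, 0.06 and 0.13 in colitis mice, and Il17a, listed at 0 in all 3 normal mice, ranged from 0.05 to 1.27 in the colitis group (adjusted p = 0.177 by limma). Of 15 tested genes of endoplasmic reticulum folding and secretion, which epithelial cells express as well, 0 passed the adjusted limit in each of the 4 comparisons of groups, and their median in colitis mice was 0.04. Of 14 tested genes of IgA switching and lymphoid follicles 0 passed in each of the 4 as well.

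Markers of other cells were read in the same mice. Past the adjusted limit in colitis mice compared to normal mice were 2 of 9 neutrophil genes, higher, and 0 of the macrophage, pan-leukocyte, smooth muscle, endothelial, fibroblast, plasmacytoid dendritic cell, T cell and epithelial genes. At the unadjusted limit 8 of 9 neutrophil, 4 of 9 macrophage and 3 of 5 pan-leukocyte genes were higher (5.56% of all genes), and 9 of 10 smooth muscle, 3 of 6 endothelial and 1 of 7 fibroblast genes were lower (15.9%). The summed level of 5 pan-leukocyte genes was 52.0 to 62.7 FPKM in normal mice and 62.2 to 200.9 in colitis mice, with overlap and with a higher mean for 5 of 5, and 25.5 to 88.0 in colitis mice receiving BBR. The sum of 9 neutrophil genes was 4.0 to 7.9 in normal mice and 71.9 to 780.9 in colitis mice, with a higher mean for 9 of 9 and S100a8 at 0 in all normal mice. Smooth muscle markers, 10 genes, summed to 1721 to 3318 in normal mice and 91.3 to 727.4 in colitis mice, with a lower mean for 10 of 10, and endothelial markers, 6 genes, to 17.9 to 23.1 and 4.7 to 12, with a lower mean for 6 of 6. The 9 macrophage genes summed to 145.7 to 202.4 and 208.8 to 494.3, with a higher mean for 9 of 9. The 8 genes of plasmacytoid dendritic cells, which share some genes with plasma cells, summed to 52.8 to 56.4 in normal mice and 88.6 to 106.8 in colitis mice, with a higher mean for 4 and a lower mean for 4, among them Siglech, a receptor that marks these cells, at 0.54 to 0.78 and 0.08 to 0.21 (limma adjusted p = 0.110). The 7 fibroblast genes summed to 262.7 to 448.4 and 178.7 to 698.6, with overlap. The 12 epithelial markers summed to 12533 to 17728 and 12794 to 18232, and 10 T cell genes to 13 to 23.9 and 9.7 to 21.0, both with overlap. In colitis mice receiving BBR, where Jchain and Mzb1 were lower still, all 9 macrophage genes had a lower mean than in colitis mice, 6 of them past the unadjusted limit, with a sum of 110.8 to 209.0 FPKM, where 5.2% of all genes were lower at that limit. All 9 tested T cell genes (1 past that limit, sum of 10 genes 9.9 to 13.7), all 9 neutrophil genes (3 past it, sum 7.2 to 249.1) and all 5 pan-leukocyte genes (3 past it) had a lower mean as well. Of the 8 plasmacytoid dendritic cell genes 7 had a lower mean (2 past it, sum 29.4 to 65.0), as had all 7 fibroblast genes (1 past it, sum 167.1 to 256.2). The 10 smooth muscle genes had a higher mean, 0 of them past it, with a sum of 505.2 to 3668 that was highest in the mouse numbered 4. The part of the mix of cells in the lower Jchain, Mzb1, Derl3, Pou2af1 and Tnfrsf17, with or without BBR, was not tested.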

How the data were processed

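The authors sequenced rectal RNA of 12 mice as single-end reads of 50 bases, and the samples were grouped and numbered by their labels. The methods and the labels name different library kits and sequencers. The submitters' processing notes name Bowtie2 2.2.5, RSEM 1.2.12 and mm9. The deposited table gives an expression value for every gene in each mouse, taken as FPKM because its column totals differ between mice. No source used here names the unit, and TPM cannot be told apart from it. The depths and read numbers given here rest on the unit being FPKM. These values are estimates and not counts, so no count test was run. Depth, 13300000 to 19600000 reads per mouse, was inferred from the spacing of the lowest values of 1474 genes that have 1 transcript in GRCm38. It limits genes of under 3 reads, for counting error only.

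limma 3.58.1 (R 4.3.3) was fitted to log2(FPKM + 0.1) of the 15315 genes whose mean reached 0.1, with group means and no covariate, a trend on mean expression, and Benjamini-Hochberg adjustment over these genes. Exact permutation tests were two-sided. Python 3.11.15, NumPy 2.4.6, pandas 2.3.3 and SciPy 1.17.1 gave levels, ratios, correlations and motif counts, and matplotlib 3.10.9 the figures. The fit was also run on simulated data of independent normal noise, with 200 genes changed in equal numbers up and down. Those data held no shift of the whole table, no deeper mice and no steps between low values. The run therefore does not bear on these features. The members and lists were chosen with earlier results of these data known. The text names all 9 members, the 5 genes most like each as far as described, and the list genes past the adjusted limit or, where fewer than 3 passed, some of the 3 with the largest differences, a mean of 1 or more and groups apart. Prdm1 with BBR, Ccr10, Ccl28, Ifng, Il17a, Cd37 and Siglech fall outside this rule and were chosen after their values were seen. P-values measure only the spread between these mice.

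Alternatives were another pseudocount (1 or 0.01), filter, scaling or trend setting, a fit of the compared groups alone, the replicate number or the deeper mice numbered 4 as a block, the remaining 8 mice alone and leaving out each mouse. The averaged colitis comparison was added after seeing the data.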

Additional observations from a re-analysis of the deposited data

How the results depend on the processing

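The number of the 9 genes past the adjusted limit in colitis mice compared to normal mice, 0 as reported, was 2 with a pseudocount of 1 (194 of all genes passed there), 1 with quantile normalization (258), 1 in a fit of the compared groups alone (509), 3 with a block for the mice numbered 4 (1412), 2 in the mice numbered 1 to 3 alone (930), 4 averaged over both BBR states (11.4% of all genes, lower) and 0 to 1 with a mouse left out (11 to 211). With BBR in both groups it was 1 with equal column totals (9 of all genes), 3 with the block for the mice numbered 4 (268), 4 in the mice numbered 1 to 3 alone (2380) and 0 to 4 with a mouse left out (0 to 2256). The other 3 comparisons stayed at 0 in every fit. Jchain, Mzb1, Derl3, Pou2af1 and Tnfrsf17 kept their direction in colitis mice in all 18 alternatives.

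The replicate numbers as a block gave 1 gene past the limit in colitis mice compared to normal mice (Pou2af1, limma adjusted p = 0.0421), changed no other count of members past it, took those past the unadjusted limit in this comparison from 5 to 3, and took all genes past it from 165 to 734. The deviations of mice with the same number had a mean correlation of 0.34 (0.08 to 0.75, 12 of 13 pairs over 0.1), against -0.10 for different numbers, and of 0.50 among the mice numbered 4. Since 1 pair fell short of 0.1 and 5 of 12 mice correlated best with their own number, the numbers were not taken as a pairing. Ms4a1 turned to -0.31 with this block where both groups received BBR.

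Of 700 gene values under the alternatives 49 turned sign, 23 passed the limit anew and 628 did neither. In the mice numbered 1 to 3 alone Cd79b turned to 0.66 in colitis mice, Cd79a to -0.48 and Derl3 to 0.14 between colitis mice with and without BBR, Ms4a1 to -0.40 with BBR in both groups, Pou2af1 to -0.39 in the interaction, and Cd79a to 0.72, Cd79b to 0.80 and Jchain to 0.0581 in normal mice. Centring turned Pigr in colitis mice to 0.22, Ms4a1 under BBR in colitis to 0.0124 (quantile normalization 0.00977) and Jchain in normal mice to 0.00126. A pseudocount of 1 turned Ms4a1 to -0.0126 in normal mice and to -0.0343 with BBR in both groups. With a mouse left out, the ranges that crossed 0 in colitis mice compared to normal mice were -1.31 to 0.0825 for Cd79b, -0.30 to 1.5 for Ms4a1 and -0.31 to 0.0738 for Pigr. Between colitis mice with and without BBR they were -0.25 to 0.82 for Cd79a, -1.35 to 0.12 for Cd79b, -0.58 to 0.28 for Ms4a1 and -0.75 to 0.14 for Derl3, with BBR in both groups -0.58 to 0.75 for Ms4a1, and in the interaction -0.77 to 0.12 for Derl3. In normal mice they were -0.93 to 0.38 for Cd79a, -0.91 to 0.34 for Cd79b, -0.51 to 1.29 for Ms4a1, -0.26 to 0.15 for Jchain, -0.20 to 0.26 for Mzb1, -0.18 to 0.20 for Derl3 and -0.19 to 0.34 for Pigr.

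All genes past the limit numbered 11 to 1412 in colitis mice (165 as reported), 0 to 2380 with BBR in both groups (6) and 0 to 59 between colitis mice with and without BBR (0). The cause of these differences was not tested. With 3 mice a group and 1 of them read more deeply, genes of a few reads, such as Tnfrsf17, Ms4a1, Mzb1, Cd79b and Derl3 in their lowest mice, are held with little precision.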
